A study of Mus musculus with 24 samples.

Results

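The Ada2a-containing (ATAC) complex is a histone acetyltransferase assembly, unrelated to the chromatin accessibility assay of the same letters, and its transcripts were followed here in NIH 3T3 cells, an immortalized mouse fibroblast line, expressing TAZ-CAMTA1, YAP-TFE3 or their parent proteins. The 10 subunit genes were taken by name, with earlier results of these data known. The study names the complex as a partner of the fusion proteins, and no measured level was used to pick them: Yeats2, Zzz3, Kat2a, Kat2b, Tada2a, Tada3, Sgf29, Mbip, Dr1 and Wdr5. They are 10 of the 39017 genes listed in the count tables. All 10 passed the filter on low counts (a mean of at least 5 counts over the libraries), which left 14361 genes tested, and the lowest count of any of them in any library was 65, for Sgf29.

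RNA-Seq was done on 24 libraries, 3 for each of 8 groups. The confluent groups were collected after 48 h at confluence: EV (empty vector), TAZ4SA and YAP5SA (TAZ and YAP made hyperactive by replacing serines that the LATS kinases phosphorylate with alanine), the fusion proteins TAZ-CAMTA1 and YAP-TFE3, and full-length TFE3. CAMTA1 cells and a further empty vector group, EVsub, were sub-confluent. Every line was made by retroviral transduction of the same parental cells, with Flag-tagged constructs in a neomycin vector and stable selection as a pool, so that each group is one kind of overexpressing pool and no library comes from untransduced cells. Where a comparison is given, EV is the control of the confluent lines and EVsub that of CAMTA1. A comparison of EVsub with EV shows what cell density did without any transgene.

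ATAC carries GCN5 (Kat2a) or PCAF (Kat2b) as its main acetyltransferase, held in a module with Tada2a, Tada3 and Sgf29, and acetylates the tails of histone H3 in nucleosomes at promoters and enhancers. A related assembly, SAGA, uses the same acetyltransferases with Tada3 and Sgf29 but has Tada2b in the place of Tada2a. Yeats2 and Zzz3 are the readers that bring ATAC to chromatin, Yeats2 through a YEATS domain that binds acylated lysines and Zzz3 through a zinc finger that binds the end of the histone H3 tail. Mbip, Dr1 and Wdr5 complete the list, and Wdr5 also scaffolds the methyltransferase complexes that mark active promoters.

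The promoters of the subunits were read to show what lies upstream of the members whose transcripts differed, since TAZ, YAP and their fusions act through TEAD factors and TFE3 binds E-boxes. RefSeq windows (GRCm38.p6, 250 bases before to 50 after a start site) were found for all 10 members, 13 windows in all. The TEAD core GGAATG, searched on both strands (CATTCC on the other), was in 1 of the 13 windows against 14.7% of the 32851 windows of all genes. The E-box CACGTG, which reads the same on both strands, was in 2 of the 13 against 7.15% of all windows. A match is a description of letters and not of binding. The 3 windows that hold a match are printed with the motif in capitals, together with those of Wdr5 and of Zzz3 (the second of its 3 windows), members with large differences and no match.
Kat2b, chr17:53583876-53584175, plus strand: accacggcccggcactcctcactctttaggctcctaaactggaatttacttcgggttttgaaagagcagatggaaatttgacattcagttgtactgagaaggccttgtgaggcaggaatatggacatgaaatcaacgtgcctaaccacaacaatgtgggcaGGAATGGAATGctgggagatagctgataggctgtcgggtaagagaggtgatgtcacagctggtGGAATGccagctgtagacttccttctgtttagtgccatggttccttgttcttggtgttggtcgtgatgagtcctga
Tada2a, chr11:84129519-84129818, minus strand: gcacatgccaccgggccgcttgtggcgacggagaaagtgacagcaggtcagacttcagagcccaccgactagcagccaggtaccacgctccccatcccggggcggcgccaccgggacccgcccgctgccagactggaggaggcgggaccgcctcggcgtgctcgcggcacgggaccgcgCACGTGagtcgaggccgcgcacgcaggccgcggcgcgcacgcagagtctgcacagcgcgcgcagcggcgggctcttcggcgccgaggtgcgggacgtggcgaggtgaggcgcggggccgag
Dr1, chr5:108268647-108268946, plus strand: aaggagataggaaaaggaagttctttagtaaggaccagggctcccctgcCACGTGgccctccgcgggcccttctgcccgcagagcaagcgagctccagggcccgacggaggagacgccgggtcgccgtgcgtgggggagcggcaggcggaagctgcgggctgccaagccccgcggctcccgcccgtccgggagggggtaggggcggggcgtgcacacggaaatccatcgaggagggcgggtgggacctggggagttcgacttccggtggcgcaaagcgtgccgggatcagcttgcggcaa
Wdr5, chr2:27514897-27515196, plus strand: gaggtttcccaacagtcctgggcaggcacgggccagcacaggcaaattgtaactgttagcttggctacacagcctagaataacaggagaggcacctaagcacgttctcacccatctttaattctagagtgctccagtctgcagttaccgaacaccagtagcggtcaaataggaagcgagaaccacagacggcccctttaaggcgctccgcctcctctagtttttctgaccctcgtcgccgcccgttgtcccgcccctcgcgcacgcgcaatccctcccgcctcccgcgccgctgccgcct
Zzz3, chr3:152395753-152396052, plus strand: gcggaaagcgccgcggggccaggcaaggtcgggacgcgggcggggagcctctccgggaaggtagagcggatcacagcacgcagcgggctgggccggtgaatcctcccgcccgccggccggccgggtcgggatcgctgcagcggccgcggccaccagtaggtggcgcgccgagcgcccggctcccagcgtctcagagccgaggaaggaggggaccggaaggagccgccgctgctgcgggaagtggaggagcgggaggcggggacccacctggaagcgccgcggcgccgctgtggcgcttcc
The Kat2b window belongs to the downstream one of its 2 start sites and has 3 matches to GGAATG, at -89, -84 and -26 from that start, of which those at -89 and -84 share bases. The window at the upstream start, chr17:53566721-53567020, has none. The E-box lies at -71 in Tada2a and at -201 in Dr1.

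Library totals ranged from 16471181 to 30132586 counts, and the values below are normalized counts in CPM (a gene's counts as a share of the library's effective size) after TMM scaling, a method that sets the libraries' sizes so that most genes do not differ. All 8 fibroblast markers were detected in every library, with at least 31808 counts of Col1a1 and 765 of Thy1, and summed to 13799 to 35246 CPM. They were 19251 to 21695 CPM in EV, 14923 to 18766 in TAZ4SA, 21728 to 23721 in YAP5SA, 25195 to 27870 in TAZ-CAMTA1 and 25210 to 35246 in YAP-TFE3. Single markers differed from EV, with Pdgfra (-1.26 and -2.43 on the log2 scale), Pdgfrb (-1.47 and -2.00) and S100a4 (-2.00 and -1.67) lower and Thy1 (1.66 and 2.36) higher in TAZ4SA and YAP5SA. The 4 epithelial markers summed to at most 1.05 CPM, with no count of Epcam in any library and at most 23 of Cdh1, which was nevertheless called lower in TAZ4SA and YAP5SA (-2.38 and -2.37) and higher in TAZ-CAMTA1 and YAP-TFE3 (1.64 and 1.62). The summed level of the 3 leukocyte markers was 13.0 to 58.6 CPM in TAZ4SA and 47.4 to 78.9 CPM in YAP5SA against 1.86 to 6.10 CPM in the other groups, nearly all of it Cd68, and Ptprc had at most 4 counts in any library. The endothelial markers summed to 8.31 to 12.0 CPM in TAZ4SA and 7.03 to 7.79 CPM in YAP5SA against at most 2.61 CPM elsewhere. They were 1.62 to 2.61 CPM in TAZ-CAMTA1 and 1.07 to 1.65 CPM in YAP-TFE3, against 0.127 to 0.221 CPM in EV. Cdh5, with at most 44 counts in any library, was called higher in TAZ-CAMTA1 (6.37), YAP5SA (4.19), YAP-TFE3 (3.77) and TAZ4SA (3.65). Kdr was called higher in TAZ4SA (6.91), YAP5SA (6.33), YAP-TFE3 (3.44) and TFE3 (3.37) and not in TAZ-CAMTA1 (1.78). The part of these 4 lists in the results below was not tested. TAZ4SA replicates 2 and 3 and EVsub replicate 2 lay farthest from their groups, with a median absolute log2 distance from the other replicates of their group of 0.361, 0.367 and 0.264 against 0.0941 to 0.214 in the other libraries. TMM factors were 0.773 to 0.829 in YAP5SA and 0.810 in TAZ4SA replicate 2, against 1.04 to 1.06 in EV. By the study's methods the stable lines of each construct were made in triplicate. For EVsub nothing used here says that its 3 libraries came from separate cultures. By the distance above they lay 0.204 to 0.264 from each other, against 0.115 to 0.189 in EV, and the test shares its estimate of spread among all groups. How far the p-values of EVsub cover spread between cultures is therefore not known.

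In EV cells the subunits were not equally abundant. Per kilobase of exon, Kat2a was highest at 20.9 ± 1.59 CPM per kb (SD, n = 3), followed by Wdr5 at 17.3 ± 0.688, Zzz3 at 14.1 ± 0.399 and Dr1 at 12.5 ± 0.852 CPM per kb. Kat2b (12.1 ± 1.10), Tada3 (11.0 ± 2.19), Mbip (10.4 ± 0.913) and Tada2a (9.79 ± 0.338 CPM per kb) came next, and from Dr1 to Tada2a each differed from its neighbour by less than their spread. Yeats2 was lower at 7.53 ± 0.688 CPM per kb and Sgf29 lowest at 2.84 ± 0.271 CPM per kb. The order depends on the length used. With the longest transcript in place of all exons, Wdr5 at 21.6 and Zzz3 at 21.3 CPM per kb stood beside Kat2a at 22.2, Yeats2 rose to 14.3 CPM per kb, and Sgf29 was still the lowest at 3.89 CPM per kb.

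**Figure D1:**
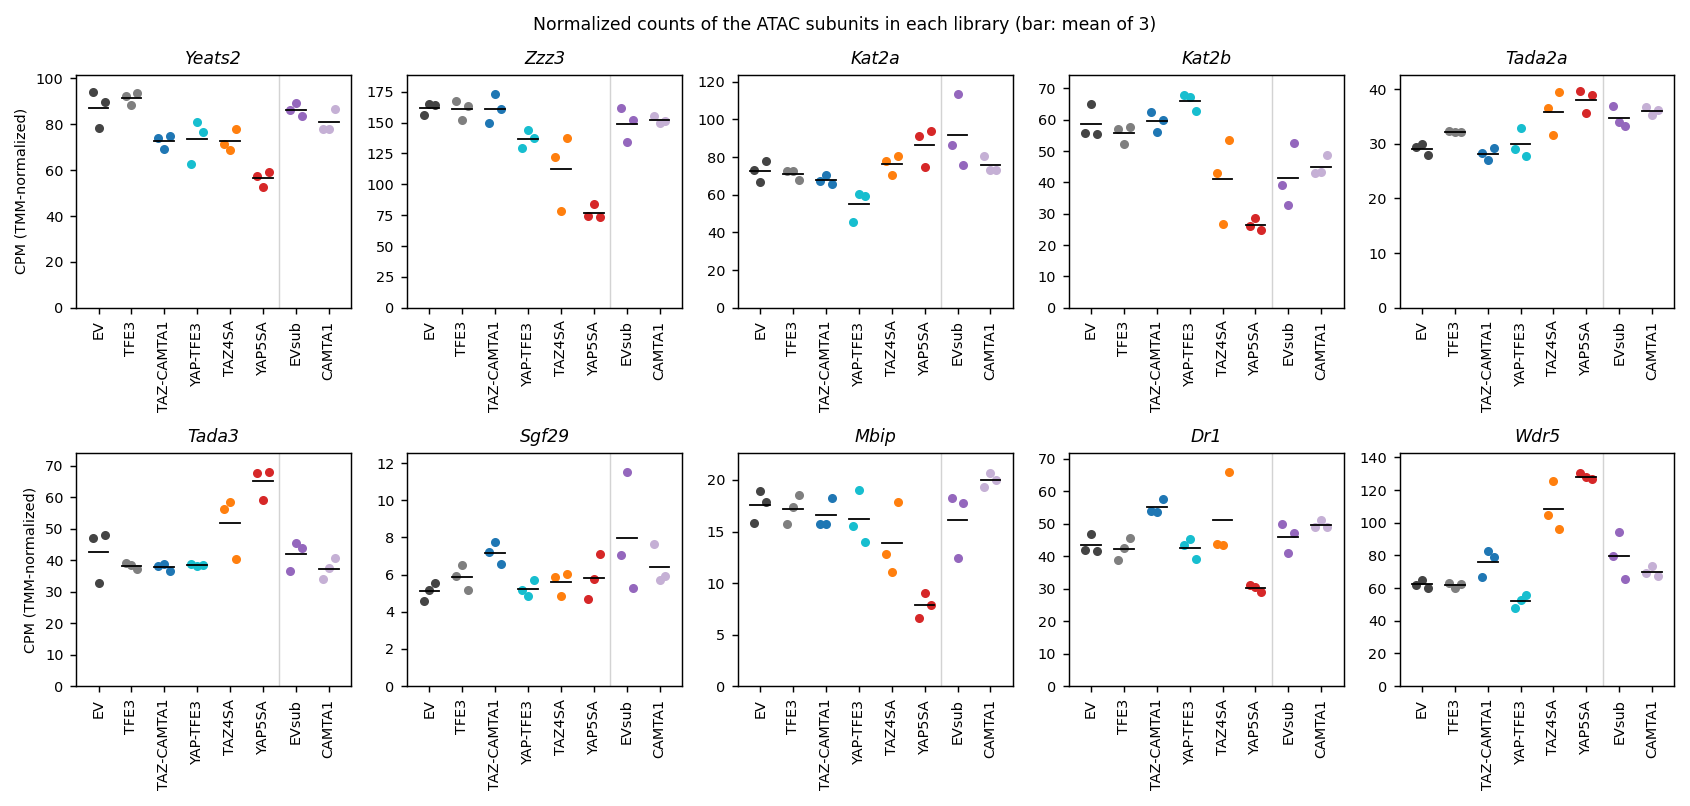
Each panel shows one ATAC subunit, with the TMM-normalized CPM of each library on the y axis (from 0), the 8 groups on the x axis and a bar for the mean of 3 libraries; the grey line separates the sub-confluent groups. Zzz3, Kat2b and Mbip were lowest in YAP5SA and Wdr5 and Tada3 were highest there, and no subunit was called in TFE3.

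In cells with hyperactive YAP most of the complex differed from EV, with subunits in opposite directions. Against EV, 8 of the 10 members passed the test in YAP5SA, 3 higher (Wdr5, Tada3, Tada2a) and 5 lower (Mbip, Kat2b, Zzz3, Yeats2, Dr1). Of all genes tested, 71.2% were called in this comparison, 36.3% higher and 34.9% lower, so the members' share is close to the background. In TAZ4SA 5 members passed, 2 higher (Wdr5, Tada2a) and 3 lower (Zzz3, Kat2b, Yeats2), where 57.5% of all genes were called, 31.1% higher and 26.4% lower. Fewer members passed in the fusion lines, where smaller shares of all genes were called as well. No member passed in TAZ-CAMTA1 by edgeR's quasi-likelihood test, where 21.5% of all genes were called. DESeq2 called 1, where it called 24% of all genes. At an unadjusted edgeR p under 0.05 there were 4 members, and the share of all genes at that threshold is not given here. Fitted on the TAZ-CAMTA1 and EV libraries alone, Yeats2 (-0.27, edgeR adjusted p = 0.0421), Sgf29 (0.49, 0.0292), Dr1 (0.34, 0.0131) and Wdr5 (0.29, 0.0382) passed, where 30.6% of all genes were called. Fitted on the TAZ4SA and EV libraries alone, only Wdr5 passed, where 41.9% of all genes were called. In YAP-TFE3 only Kat2a passed, lower, where 15.3% of all genes were called, 4.74% lower. TFE3 and CAMTA1 had no member called by edgeR, where 3.37% and 2.18% of all genes were called. DESeq2 called none either, where it called 4.9% and 4.38% of all genes. At an unadjusted edgeR p under 0.05 there were 0 and 1 members, again without a share of all genes. The median log2 fold change of the 10 members was 0.10 in TAZ4SA, -0.03 in TAZ-CAMTA1, -0.17 in YAP5SA and -0.13 in YAP-TFE3, beside medians over all tested genes of 0.05, 0.00, 0.01 and 0.00. The comparisons with EV share the EV libraries.

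**Figure D2:**
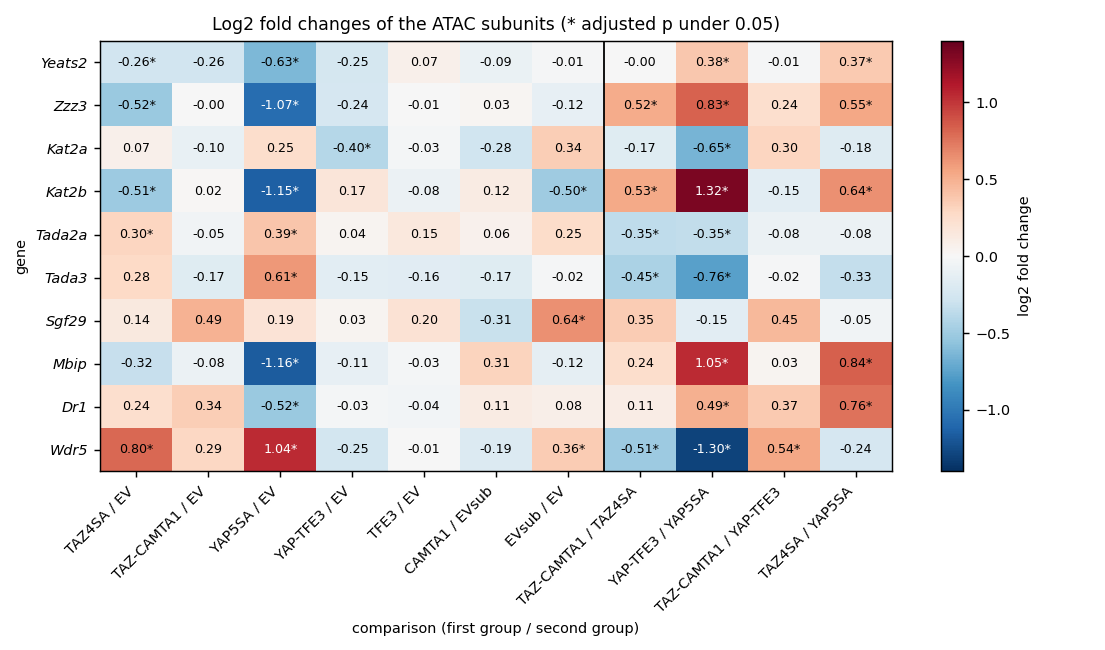
Log2 fold changes of the 10 subunits (y axis) in the 11 comparisons (x axis, first group over second group), where colour and the printed value give the fold change and an asterisk an adjusted p under 0.05; the line separates the comparisons with a vector from those between lines. The YAP5SA column and the YAP-TFE3 over YAP5SA column hold 8 and 9 of the calls, and both use the YAP5SA libraries, so their signs are not independent.

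Against EV, the acetyltransferases Kat2b and Kat2a were called in different lines. Kat2b (ENSMUSG00000000708, chr17:53566861-53672720, plus strand), which encodes PCAF, had 55.7, 64.9 and 55.5 CPM in the EV libraries and 26.0, 28.6 and 24.8 CPM in YAP5SA. The groups lay far apart, and Kat2b was lower in YAP5SA by a log2 fold change of -1.15 (SE 0.17, adjusted p = 4.63e-06 by edgeR's quasi-likelihood test). In TAZ4SA the libraries read 43.0, 26.8 and 53.5 CPM, all below EV but spread over a wide range, with a log2 fold change of -0.51 (SE 0.17, edgeR adjusted p = 0.0150). That call rests on TAZ4SA replicate 2, the lowest library, without which it was -0.28 (edgeR adjusted p = 0.105), and it was also lost without EV replicate 2 (-0.43, edgeR adjusted p = 0.0625). TAZ-CAMTA1 libraries, at 62.5, 56.2 and 59.8 CPM, and YAP-TFE3 libraries, at 68.0, 67.3 and 62.8 CPM, overlapped those of EV. The differences were 0.02 (95% interval -0.33 to 0.37) and 0.17 (-0.18 to 0.52) on the log2 scale. TFE3 had 56.9, 52.3 and 57.7 CPM. A Kat2b pseudogene exists in the annotation, and how reads that match both were counted is not given in the sources used here.

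Kat2a (ENSMUSG00000020918, chr11:100704746-100712465, minus strand), which encodes GCN5, had 73.0, 66.9 and 77.9 CPM in EV. YAP5SA libraries had 91.0, 74.7 and 93.6 CPM, which overlap EV, and the log2 fold change of 0.25 (SE 0.13, edgeR adjusted p = 0.0853) did not pass. Without YAP5SA replicate 2, the lowest of the 3, it was 0.35 (edgeR adjusted p = 0.0316). With library totals alone it turned to -0.12 (edgeR adjusted p = 0.478). In YAP-TFE3 the libraries read 45.3, 60.5 and 59.3 CPM, all below EV. Kat2a was the only member called in either fusion line against EV in the edgeR fit of all libraries with TMM scaling. It was lower in YAP-TFE3 by -0.40 on the log2 scale (SE 0.13, edgeR adjusted p = 0.0383). The call is close to the threshold. It was lost without EV replicate 1 (edgeR adjusted p = 0.0975), EV replicate 3 (0.157) or YAP-TFE3 replicate 1 (0.194), and the value stayed between -0.31 and -0.39 in these. It was also lost with library totals alone (0.0645), with no filter on low counts (0.0564), with the replicate number as a block (0.0512) and in a fit on the YAP-TFE3 and EV libraries alone (0.0502). TAZ4SA (77.9, 70.3 and 80.6 CPM) and TAZ-CAMTA1 (67.1, 70.2 and 65.9 CPM) overlapped EV.

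The balance of the paralogs was read within each library as a ratio of raw counts, in which the scaling drops out. Gene length does not, and cancels only in differences between groups. The ratio of Kat2b to Kat2a counts was 0.712 to 0.970 in EV, 0.719 to 0.852 in TFE3 and 0.800 to 0.932 in TAZ-CAMTA1. It was 1.06 to 1.50 in YAP-TFE3, the only group above 1 in every library, and 0.265 to 0.383 in YAP5SA, with TAZ4SA between at 0.382 to 0.663. Per kilobase of exon Kat2b was not above Kat2a in YAP-TFE3, at 13.6 ± 0.579 CPM per kb against 15.8 ± 2.42 (SD, n = 3), a difference within the spread. Differences of the mean log2 ratio from EV were 0.58 in YAP-TFE3, -1.40 in YAP5SA and -0.64 in TAZ4SA, each with no overlap and an exact two-sided permutation p = 0.10 (adjusted p = 0.175 over 7 comparisons), the smallest p that 3 against 3 libraries allow. TAZ-CAMTA1 differed by 0.12 (exact permutation p = 0.50). The ratio was also lower in sub-confluent vector cells, at 0.289 to 0.694 in EVsub, a difference of -0.84 from EV (exact permutation p = 0.10, adjusted p = 0.175).

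**Figure D3:**
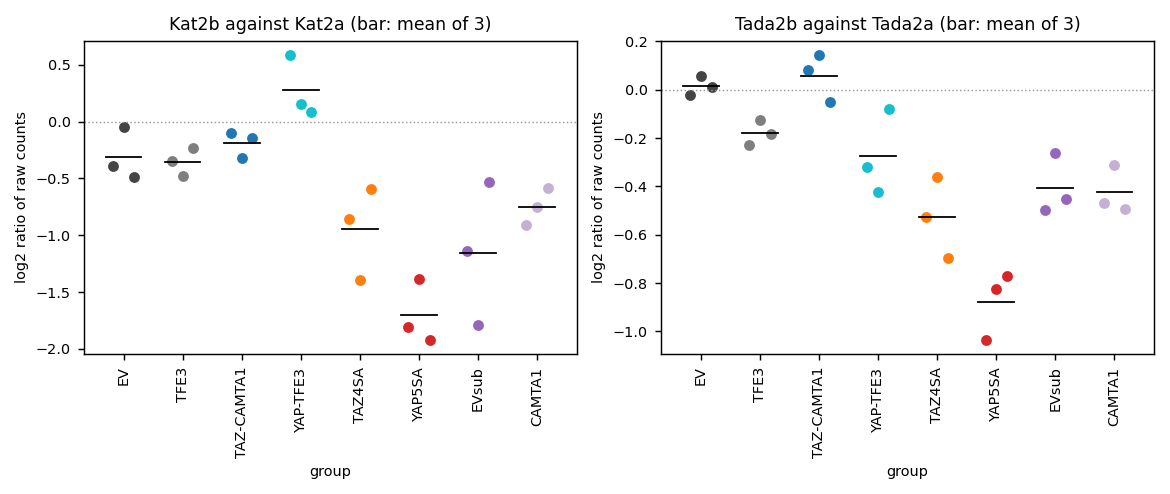
Log2 ratio of raw counts (y axis) of Kat2b to Kat2a (left) and of Tada2b to Tada2a (right) in each library, by group (x axis), with a bar for the mean of 3; the dotted line marks equal counts. All 3 YAP-TFE3 libraries lie above the line on the left and all 3 YAP5SA libraries lie below every EV library in both panels.

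Tada2a and Tada3 sit beside the acetyltransferase in its module, Tada2a in ATAC and Tada3 in both ATAC and SAGA, and both were higher in YAP5SA. Tada3 (ENSMUSG00000048930, chr6:113366025-113377883, minus strand) had 47.1, 32.8 and 48.0 CPM in EV and 67.8, 59.2 and 68.2 CPM in YAP5SA, a log2 fold change of 0.61 (SE 0.14, edgeR adjusted p = 0.000433). In TAZ4SA it had 56.3, 58.7 and 40.4 CPM, which overlaps EV, with a log2 fold change of 0.28 (edgeR adjusted p = 0.0878). Without TAZ4SA replicate 3, the low library, that value was 0.43 (edgeR adjusted p = 0.00654), and without EV replicate 3 it was 0.37 (0.0469). In both fusion lines Tada3 was narrow and within the EV range, at 38.3, 38.9 and 36.7 CPM in TAZ-CAMTA1 and 38.9, 38.1 and 38.6 CPM in YAP-TFE3.

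Tada2a (ENSMUSG00000018651, chr11:84078920-84129600, minus strand) varied least of the 10, with 1.35 times as much in the highest group mean (YAP5SA) as in the lowest (TAZ-CAMTA1). EV had 29.5, 29.9 and 28.0 CPM, TAZ4SA 36.5, 31.6 and 39.4 CPM and YAP5SA 39.6, 35.7 and 38.9 CPM. It was higher in TAZ4SA by 0.30 (SE 0.09, edgeR adjusted p = 0.00867) and in YAP5SA by 0.39 (SE 0.09, edgeR adjusted p = 0.000903) on the log2 scale. These values rest on TMM scaling: with library totals alone they were 0.13 and 0.01 and neither passed, while the median over all genes moved to -0.13 in TAZ4SA and -0.36 in YAP5SA. Under that scaling the share of calls that were higher went from 54.1% to 41.9% in TAZ4SA and from 51.0% to 34.5% in YAP5SA, Tada3 in YAP5SA was 0.24 (edgeR adjusted p = 0.0895) and Kat2a there turned to -0.12. The fusion lines overlapped EV at 28.2, 27.1 and 29.2 CPM (TAZ-CAMTA1) and 29.0, 32.9 and 27.7 CPM (YAP-TFE3).

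The SAGA counterpart Tada2b was compared with Tada2a in the same way. The ratio of Tada2b to Tada2a counts was 0.986 to 1.04 in EV, 0.616 to 0.780 in TAZ4SA and 0.488 to 0.585 in YAP5SA, differences in mean log2 ratio of -0.54 and -0.89 (exact permutation p = 0.10 for each, adjusted p = 0.14 over 7 comparisons). In TAZ-CAMTA1 it was 0.965 to 1.10, a difference of 0.04 (exact permutation p = 0.60), and in YAP-TFE3 0.747 to 0.946, a difference of -0.29 (exact permutation p = 0.10, adjusted p = 0.14). TFE3 (0.854 to 0.916) and EVsub (0.707 to 0.835) also lay below EV, with differences of -0.20 and -0.42 and the same p. Tada2b shares 411 exon bases with its neighbour Grpel1, and whether strand was used in counting is not given in the sources used here.

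Sgf29 (ENSMUSG00000030714, chr7:126649309-126672925, plus strand), which carries a tandem Tudor domain that binds methylated histone H3, was the least abundant member. It had 4.60, 5.15 and 5.57 CPM in EV, 7.20, 7.73 and 6.58 CPM in TAZ-CAMTA1 and 5.16, 4.85 and 5.69 CPM in YAP-TFE3. TAZ-CAMTA1 lay above EV in every library, but the log2 fold change of 0.49 (SE 0.22) had an edgeR adjusted p = 0.114. YAP5SA libraries, at 4.67, 5.74 and 7.09 CPM, and TAZ4SA libraries, at 5.85, 4.87 and 6.02 CPM, overlapped EV. Sgf29 shares 230 exon bases with overlapping genes, among them Sult1a1, so that some of its counts are uncertain.

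The readers Zzz3 and Yeats2 were lower in both hyperactive lines. Zzz3 (ENSMUSG00000039068, chr3:152395473-152462826, plus strand) had 156, 165 and 164 CPM in EV, 122, 78.1 and 137 CPM in TAZ4SA and 74.2, 83.9 and 73.3 CPM in YAP5SA. TAZ4SA replicate 2 fell in the YAP5SA range and the other TAZ4SA libraries lay between. Against EV, Zzz3 was lower by -0.52 in TAZ4SA (SE 0.13, edgeR adjusted p = 0.00215) and by -1.07 in YAP5SA (SE 0.14, edgeR adjusted p = 3.80e-07). The TAZ4SA value was -0.32 (edgeR adjusted p = 0.00911) without TAZ4SA replicate 2 and did not pass in a fit on these groups alone (-0.57, 0.0548). Libraries of TAZ-CAMTA1, at 149, 173 and 161 CPM, overlapped EV, with a log2 fold change of -0.00 and a 95% interval of -0.28 to 0.27. Those of YAP-TFE3, at 129, 144 and 138 CPM, were below every EV library, but the log2 fold change of -0.24 (SE 0.13) had an edgeR adjusted p = 0.264. Zzz3 shares 12 exon bases with Ak5.

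Yeats2 (ENSMUSG00000041215, chr16:20141063-20232573, plus strand) had 93.9, 78.4 and 89.6 CPM in EV and 57.5, 52.7 and 59.0 CPM in YAP5SA, a log2 fold change of -0.63 (SE 0.10, edgeR adjusted p = 5.02e-06). The other 3 lines with a TAZ or YAP part gave nearly the same value as each other. TAZ4SA had 71.6, 68.7 and 77.8 CPM (log2 fold change -0.26, edgeR adjusted p = 0.0231), TAZ-CAMTA1 74.0, 69.2 and 74.9 CPM (-0.26, edgeR adjusted p = 0.0527), and YAP-TFE3 62.7, 80.8 and 76.8 CPM (-0.25, edgeR adjusted p = 0.0849). These 3 values straddle the threshold, so a call in TAZ4SA and none in the fusion lines is no difference between them, and the direct contrast of TAZ-CAMTA1 with TAZ4SA was -0.00 with a 95% interval of -0.20 to 0.20. The TAZ4SA call was lost without EV replicate 1 (-0.21, edgeR adjusted p = 0.110), EV replicate 3 (-0.24, 0.0688), TAZ4SA replicate 1 (-0.25, 0.0590) or TAZ4SA replicate 2 (-0.22, 0.0746). Without EV replicate 2, the lowest EV library, Yeats2 passed in TAZ-CAMTA1 (-0.34, edgeR adjusted p = 0.0225) and in YAP-TFE3 (-0.32, 0.0385), and without YAP-TFE3 replicate 2 it passed in YAP-TFE3 (-0.32, 0.0468). DESeq2 called it in both fusion lines (adjusted p = 0.0182 and 0.0368).

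Mbip and Dr1 are smaller subunits, Mbip named for its binding to the kinase MUK and Dr1 the histone-fold protein that also represses TBP as part of NC2. Mbip (ENSMUSG00000021028, chr12:56328303-56345894, minus strand) had 15.9, 18.9 and 17.9 CPM in EV and 6.57, 9.07 and 7.85 CPM in YAP5SA, lower by a log2 fold change of -1.16 (SE 0.18, edgeR adjusted p = 4.48e-06), the largest change of any member against EV. In TAZ4SA the libraries split, at 12.8, 11.1 and 17.9 CPM, with a log2 fold change of -0.32 (edgeR adjusted p = 0.109) that became -0.55 (edgeR adjusted p = 0.00821) without TAZ4SA replicate 3. TAZ-CAMTA1 (15.8, 15.7 and 18.3 CPM) and YAP-TFE3 (15.5, 19.0 and 14.0 CPM) overlapped EV.

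Dr1 (ENSMUSG00000029265, chr5:108268897-108280526, plus strand) had 41.9, 46.9 and 41.6 CPM in EV and 31.2, 30.6 and 29.0 CPM in YAP5SA, a log2 fold change of -0.52 (SE 0.13, edgeR adjusted p = 0.000958). It was not lower in TAZ4SA, where replicate 3 alone was high (43.8, 43.5 and 66.0 CPM, log2 fold change 0.24, edgeR adjusted p = 0.112). Leaving out TAZ4SA replicate 1 or replicate 2 gave 0.34 in each case (edgeR adjusted p = 0.0373 and 0.0318), and leaving out replicate 3 gave 0.0081 (0.950). TAZ-CAMTA1 libraries, at 53.9, 53.6 and 57.7 CPM, lay above every EV library, with a log2 fold change of 0.34 (SE 0.13, edgeR adjusted p = 0.0549) that passed without EV replicate 2 (0.40, edgeR adjusted p = 0.0473). YAP-TFE3 overlapped EV at 43.5, 45.3 and 39.0 CPM.

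Wdr5 (ENSMUSG00000026917, chr2:27515157-27536535, plus strand), the WD40-repeat scaffold that ATAC shares with the COMPASS methyltransferases, was the member that rose most. EV libraries had 62.1, 64.9 and 59.9 CPM, TAZ4SA 105, 125 and 96.2 CPM and YAP5SA 131, 128 and 127 CPM. The groups were well separated, with log2 fold changes of 0.80 in TAZ4SA (SE 0.12, edgeR adjusted p = 5.40e-06) and 1.04 in YAP5SA (SE 0.12, edgeR adjusted p = 6.42e-08). In the fusion lines it leaned in opposite directions. TAZ-CAMTA1 had 66.9, 82.7 and 79.2 CPM, all above EV (log2 fold change 0.29, edgeR adjusted p = 0.0788), and passed without its replicate 1 (0.38, edgeR adjusted p = 0.0368). YAP-TFE3 had 48.0, 52.9 and 55.8 CPM, all below EV (log2 fold change -0.25, edgeR adjusted p = 0.161).

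**Figure D4:**
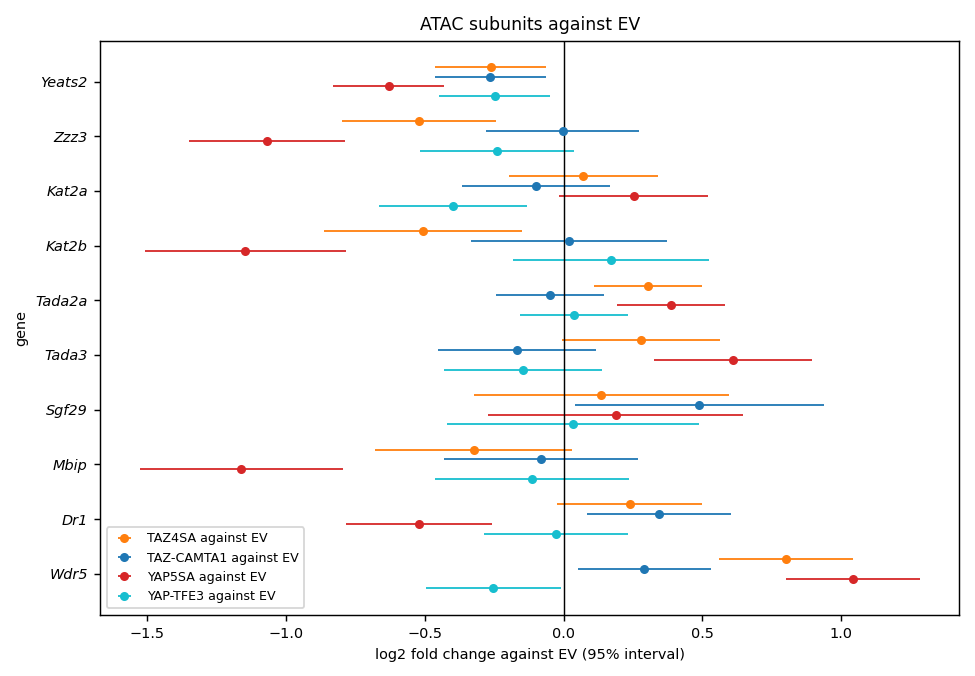
Log2 fold change against EV (x axis) of each subunit (y axis) in TAZ4SA, TAZ-CAMTA1, YAP5SA and YAP-TFE3, with points for the estimate and lines for the 95% interval from the edgeR fit of all 24 libraries. The intervals of YAP5SA lie away from 0 for 8 subunits, on both sides of it. Those of the fusion proteins reach no lower than -0.67 and no higher than 0.94. At an unadjusted edgeR p under 0.05 there were 4 subunits in TAZ-CAMTA1 and 3 in YAP-TFE3, without a share of all genes.

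The direct contrasts compared each fusion with its hyperactive parent. YAP-TFE3 differed from YAP5SA in 9 of the 10 members, where 70.9% of all genes were called (36.4% higher, 34.5% lower), and Sgf29 was the exception. Kat2b was higher in YAP-TFE3 by 1.32 (SE 0.18, edgeR adjusted p = 7.49e-07), Mbip by 1.05 and Zzz3 by 0.83 on the log2 scale, and Wdr5 was lower by -1.30 (SE 0.12, edgeR adjusted p = 3.24e-09), Tada3 by -0.76 and Kat2a by -0.65. Smaller differences passed for Dr1 (0.49), Yeats2 (0.38) and Tada2a (-0.35). With library totals alone the Tada2a value turned to 0.01 and Kat2a was -0.29 (edgeR adjusted p = 0.0798), while the median over all genes moved from 0.05 to 0.41 and the share of calls that were higher from 51.4% to 67.6%.

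TAZ-CAMTA1 differed from TAZ4SA in 5 members, where 54.7% of all genes were called, 26.6% higher and 28.1% lower. Zzz3 (0.52, edgeR adjusted p = 0.00259) and Kat2b (0.53, edgeR adjusted p = 0.0129) were higher in the fusion line, and Wdr5 (-0.51, edgeR adjusted p = 0.000865), Tada3 (-0.45, 0.00917) and Tada2a (-0.35, 0.00338) were lower. Without TAZ4SA replicate 2, Kat2b was 0.30 (edgeR adjusted p = 0.0903) and Tada3 -0.35 (0.0549), and Zzz3 was 0.31 and still passed (0.0115). In a fit on these groups alone only Wdr5 passed, where 38.2% of all genes were called, with edgeR adjusted p of 0.0702 for Zzz3, 0.0942 for Kat2b, 0.0620 for Tada3 and 0.0972 for Tada2a. Without TAZ4SA replicate 3, Mbip (0.47, edgeR adjusted p = 0.0219) and Dr1 (0.34, 0.00704) passed as well. With library totals alone the all-gene median moved from 0.00 to 0.17 and the share of calls that were higher from 48.5% to 62.0%, and Tada2a (-0.19, edgeR adjusted p = 0.207) and Tada3 (-0.26, 0.0851) did not pass.

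Whether the gap between fusion and parent was wider for YAP than for TAZ was tested as a difference of differences, in which 31.4% of all genes were called. It passed for Mbip (0.80, edgeR adjusted p = 0.0159), Kat2b (0.79, 0.0168), Yeats2 (0.38, 0.0359), Kat2a (-0.48, 0.0495) and Wdr5 (-0.78, 0.00104). It did not pass for Zzz3 (0.31, edgeR adjusted p = 0.218), Tada3 (-0.31, 0.230), Sgf29 (-0.51, 0.220) or Dr1 (0.39, 0.102), and it was 0.00 for Tada2a (0.997). This difference was computed in the fit of all libraries only, with no alternative and no library left out, and Kat2a lies at the threshold.

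Between the hyperactive proteins, 5 members were higher in TAZ4SA than in YAP5SA, where 42.4% of all genes were called, 22.8% higher. These were Mbip (0.84, edgeR adjusted p = 0.000786), Dr1 (0.76, 8.81e-05), Kat2b (0.64, 0.00557), Zzz3 (0.55, 0.00272) and Yeats2 (0.37, 0.00434). For Kat2b and Zzz3 the ranges still overlapped through TAZ4SA replicate 2, and Kat2b was 0.41 (edgeR adjusted p = 0.0681) without TAZ4SA replicate 3. In a fit on these groups alone only Mbip and Dr1 passed, where 20.3% of all genes were called, with edgeR adjusted p of 0.0784 to 0.0908 for Kat2b, Zzz3 and Yeats2. Without TAZ4SA replicate 2, Tada3 (-0.43, edgeR adjusted p = 0.0199) and Wdr5 (-0.35, 0.0167) passed on the other side, and Tada3 also passed without TAZ4SA replicate 1 (-0.40, 0.0484) or YAP5SA replicate 2 (-0.39, 0.0445). The share of calls that were higher was 53.8% and became 72.6% with library totals alone, when the all-gene median went from 0.05 to 0.25. Between the fusion lines Wdr5 alone passed, higher in TAZ-CAMTA1 by 0.54 (SE 0.12, edgeR adjusted p = 0.00341), where 11.6% of all genes were called, 5.32% higher, and it passed without each library in turn.

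In TFE3 cells no member passed. No log2 fold change exceeded 0.20 in size, and the 95% intervals of the 10 members reached from -0.44 to 0.65. CAMTA1 against EVsub gave log2 fold changes from -0.31 (Sgf29) to 0.31 (Mbip), with intervals from -0.75 to 0.66. Mbip was the one member whose CAMTA1 libraries, at 19.3, 20.6 and 20.0 CPM, all lay above EVsub (18.2, 12.5 and 17.7 CPM), with an edgeR adjusted p = 0.331.

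Cell density alone, without a transgene, gave 3 calls that rest on few libraries. In EVsub against EV, Sgf29 (log2 fold change 0.64, edgeR adjusted p = 0.0355) and Wdr5 (0.36, 0.0295) were higher and Kat2b (-0.50, 0.0395) was lower, 3 of 10 members where 22.1% of all genes were called, 12.5% higher and 9.59% lower. Kat2b had 39.2, 32.8 and 52.6 CPM in EVsub, Sgf29 7.06, 11.5 and 5.28 CPM and Wdr5 79.6, 94.6 and 65.5 CPM. EVsub replicate 2 was the most extreme for each. Without it the values were -0.35 for Kat2b (edgeR adjusted p = 0.206), 0.27 for Sgf29 (0.392) and 0.22 for Wdr5 (0.219), and none passed. Leaving out EV replicate 1 or EV replicate 3 also lost all 3 calls (edgeR adjusted p of 0.0628 to 0.128), EV replicate 2 lost Kat2b (0.126) and Sgf29 (0.0704), EVsub replicate 1 lost Kat2b (0.120) and Wdr5 (0.0672), and without EVsub replicate 3 Kat2a passed (0.46, 0.0121).

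A pair of further ATAC subunits outside the list, Kat14 (a second acetyltransferase of the complex) and Pole3 (a histone-fold protein shared with DNA polymerase epsilon), were read alongside. Pole3 had 66.5, 73.0 and 71.5 CPM in EV and 43.8, 49.7 and 48.3 CPM in YAP5SA, a log2 fold change of -0.57 (SE 0.13, edgeR adjusted p = 0.000413). It did not pass in TAZ4SA (-0.18, edgeR adjusted p = 0.231), TAZ-CAMTA1 (0.24, 0.198) or YAP-TFE3 (-0.07, 0.785). Kat14 had 50.3, 50.1 and 52.9 CPM in EV and 40.5, 48.7 and 39.7 CPM in TAZ4SA, where it was lower by -0.25 (SE 0.11, edgeR adjusted p = 0.0482), and was -0.13 in YAP5SA (edgeR adjusted p = 0.279). Kat14 shares 693 exon bases with Pet117.

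Correlations between subunits over the 24 libraries are given as a description, because the libraries share groups and scaling. The Pearson correlation of log2 CPM was 0.90 between Zzz3 and Mbip, 0.82 between Zzz3 and Kat2b and 0.78 between Yeats2 and Zzz3. It was -0.88 between Tada3 and Mbip, -0.88 between Kat2b and Wdr5 and -0.68 between Kat2a and Kat2b. Some pairs lay near 0, among them Yeats2 with Kat2a (0.067) and Sgf29 with Mbip (0.016), Tada2a (0.071), Yeats2 (0.10) and Zzz3 (0.16). Many others did not, such as Zzz3 with Tada3 (-0.87), Mbip with Dr1 (0.78) and Kat2b with Tada3 (-0.78). Among all tested genes, those nearest to Zzz3 were Pwwp2a (r = 0.98), Csnk1g3 (0.98) and Togaram1 (0.98), and those nearest to Kat2b were Trim12c (0.96), Zfp949 (0.95) and Vps13b (0.95). Yeats2 was nearest to Ucp2 (0.94), Camkk1 (0.93) and Zcchc14 (0.92), and Kat2a, with lower values, to Dhx37 (0.88), Nt5c3b (0.88) and Polr1a (0.87), each over the 24 libraries.

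The complexes that share subunits with ATAC were counted in the same way. Of 20 SAGA genes outside ATAC, 6 were higher and 7 lower in TAZ4SA and 9 higher and 7 lower in YAP5SA (medians 0.00 and 0.14), against 1 higher and 2 lower in TAZ-CAMTA1 and 0 higher and 3 lower in YAP-TFE3 (medians -0.13 and -0.16). The SAGA core subunit Tada1 had the largest fall in both hyperactive lines, at -1.49 in TAZ4SA (SE 0.15, edgeR adjusted p = 5.01e-08) and -2.26 in YAP5SA (SE 0.16, edgeR adjusted p = 6.45e-11). The largest rises were of the deubiquitinase Usp22 in TAZ4SA (0.93) and of Supt3 in YAP5SA (1.68). In TAZ-CAMTA1 Sf3b5 rose by 0.40 and Atxn7l1 fell (-0.47), and in YAP-TFE3 Sf3b3 fell (-0.50). These counts of 13 and 16 of 20 in the hyperactive lines, and of 3 of 20 in each fusion line, stand beside 57.5%, 71.2%, 21.5% and 15.3% of all genes and lie near that background.

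Of 18 further genes of the WDR5-containing COMPASS and NSL complexes, 8 were higher and 3 lower in TAZ4SA and 8 higher and 4 lower in YAP5SA (medians 0.11 and 0.15), with 1 higher and 2 lower in TAZ-CAMTA1 and 0 higher and 1 lower in YAP-TFE3 (medians -0.01 and -0.09). The NSL acetyltransferase Kat8 rose most in both, by 0.95 in TAZ4SA and 1.59 in YAP5SA (edgeR adjusted p = 3.69e-06 and 8.81e-10). Wdr82, which targets the SETD1 methyltransferases to polymerase, was the largest fall in all 4 lines, at -0.76 in TAZ4SA, -1.27 in YAP5SA, -0.37 in TAZ-CAMTA1 and -0.38 in YAP-TFE3 (edgeR adjusted p = 2.08e-06, 5.08e-10, 0.0114 and 0.0113). Kansl2 rose by 0.42 in TAZ-CAMTA1. The shares called in these lists too stand beside 57.5% of all genes in TAZ4SA, 71.2% in YAP5SA, 21.5% in TAZ-CAMTA1 and 15.3% in YAP-TFE3.

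Of 8 other histone acetyltransferases, Kat8 among them again, 3 were higher and 2 lower in TAZ4SA and 3 higher and 4 lower in YAP5SA (medians -0.17 and -0.45), and none passed in TAZ-CAMTA1 or YAP-TFE3 (medians 0.08 and -0.07). Kat6b had the largest fall, at -1.08 in TAZ4SA and -1.25 in YAP5SA. Of 6 deacetylases, 2 were lower in TAZ4SA (Hdac1 most, -0.68) and 4 lower with 1 higher in YAP5SA (Hdac8 -1.98, Sirt6 0.73), with medians of -0.40 and -0.43. The deacetylase of the nuclear corepressors, Hdac3, was the 1 called in each fusion line, at -0.33 in TAZ-CAMTA1 and -0.43 in YAP-TFE3 (edgeR adjusted p = 0.0274 and 0.00613). Hdac3 was also called lower in TAZ4SA (-0.46, edgeR adjusted p = 0.000790) and not called in YAP5SA (-0.14, 0.225). Beside these counts, 57.5% of all genes were called in TAZ4SA, 71.2% in YAP5SA, 21.5% in TAZ-CAMTA1 and 15.3% in YAP-TFE3.

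Proliferation genes were counted alongside because density changes them. Of 10 cell cycle genes, all 10 were higher in EVsub than in EV (median 1.85, where 22.1% of all genes were called), 6 were higher in TAZ-CAMTA1 (median 1.11, Ccna2 1.41) and none passed in YAP-TFE3 (median 0.34). In TAZ4SA 2 were higher and 1 lower (Ccnb1 0.97, Pcna -0.85) and in YAP5SA 3 higher and 1 lower (Aurkb 0.87, Pcna -0.91). Over all genes, 21.5% were called in TAZ-CAMTA1, 15.3% in YAP-TFE3, 57.5% in TAZ4SA and 71.2% in YAP5SA. The part of the cell cycle genes in the differences of the ATAC subunits was not tested.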

How the data were processed

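The 24 RNA-Seq libraries of NIH 3T3 cells were grouped and numbered by their labels (for YAP-TFE3 replicate 3, whose description names another replicate, from its title). The authors deposited raw counts of reads per Ensembl gene, made on mm10, without normalization; the counting program and its use of strand are not given in the sources used here.

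The quasi-likelihood test of edgeR 4.0.16 in R 4.3.3 was run with TMM scaling on one model of the 8 groups, which shares its estimate of spread among them. It covered 14361 genes, those averaging 5 counts or more, and a gene was called when its p, adjusted by Benjamini-Hochberg over all of them, was under 0.05. Log2 CPM for correlations used a prior count of 2. Gene positions are GENCODE M21 on GRCm38 (mm10). Every list was described by its counts, with no set test. Ratios of paralogs used raw counts and exact permutation tests.

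The members and lists were chosen with earlier results of these data known. Named genes are the 10 members, Kat14, Pole3, the largest called rise and fall of each other list in the 4 TAZ and YAP lines against EV, and the 3 genes most correlated with Yeats2, Zzz3, Kat2a and Kat2b. In no comparison did same-numbered libraries deviate together, with a correlation over 0.1, for every replicate number, so replicate numbers were not taken as pairs.

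Alternatives were DESeq2 1.42.0, other size factors (RLE, upper quartile, library totals), every gene with a count (24737), a stricter filter of 10 counts in each library (11461 genes), a replicate block, fits on the compared groups alone, and each library left out in turn.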

Additional observations from a re-analysis of the deposited data

Results flagged for a closer look

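The direct contrasts between lines were singled out because they test the difference between the effects of 2 proteins itself, by edgeR's quasi-likelihood test over all genes, and each value is a log2 fold change of the first line over the second. Between YAP-TFE3 and YAP5SA it passed for Kat2b (1.32), Mbip (1.05), Zzz3 (0.83), Dr1 (0.49), Yeats2 (0.38), Tada2a (-0.35), Kat2a (-0.65), Tada3 (-0.76) and Wdr5 (-1.30), where 70.9% of all genes were called. Between TAZ-CAMTA1 and TAZ4SA it passed for Kat2b (0.53), Zzz3 (0.52), Tada2a (-0.35), Tada3 (-0.45) and Wdr5 (-0.51), where 54.7% of all genes were called. Between TAZ4SA and YAP5SA it passed for Mbip (0.84), Dr1 (0.76), Kat2b (0.64), Zzz3 (0.55) and Yeats2 (0.37), where 42.4% were called, and between TAZ-CAMTA1 and YAP-TFE3 for Wdr5 (0.54), where 11.6% were called. In fits on the compared groups alone, the calls of Kat2b, Zzz3, Tada2a and Tada3 between TAZ-CAMTA1 and TAZ4SA and those of Kat2b, Zzz3 and Yeats2 between TAZ4SA and YAP5SA were lost. With library totals alone, Tada2a and Tada3 between TAZ-CAMTA1 and TAZ4SA and Kat2a between YAP-TFE3 and YAP5SA were lost, and Tada2a between YAP-TFE3 and YAP5SA turned to 0.010.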

How the results depend on the processing

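Of the 37 calls of members over 11 comparisons, 18 were kept under every alternative. With fits on the compared groups alone, the number of members called was 1 in TAZ4SA, 4 in TAZ-CAMTA1 and 0 in YAP-TFE3 against EV, 0 in EVsub against EV, 1 in TAZ-CAMTA1 against TAZ4SA, 2 in TAZ-CAMTA1 against YAP-TFE3 and 2 in TAZ4SA against YAP5SA, where 41.9%, 30.6%, 16.1%, 11.7%, 38.2%, 17.9% and 20.3% of all genes were called in the same order. DESeq2 called 1 in TAZ-CAMTA1 and 2 in YAP-TFE3 against EV and 2 between the fusions, where 24%, 18% and 14% of all genes were called. RLE factors and the stricter filter each called 1 in TAZ-CAMTA1, where 21.9% and 23.3% of all genes were called. No filter gave 3 in TAZ4SA and 0 in YAP-TFE3, where 34.1% and 9.81% of the larger set of genes were called. It also lost the calls of Wdr5 in EVsub against EV and of Tada2a in TAZ-CAMTA1 against TAZ4SA. Library totals alone gave 0 in YAP-TFE3 against EV and 3 in TAZ-CAMTA1 against TAZ4SA, where 15.4% and 54.1% of all genes were called. Also lost with them were Tada2a and Tada3 in YAP5SA against EV and Kat2a and Tada2a in YAP-TFE3 against YAP5SA. Kat2b in EVsub and Tada2a in TAZ4SA against EV were lost too, while Mbip in TAZ4SA against EV passed. The cause was not tested. Library totals alone turned Kat2a in YAP5SA against EV to -0.12 and Tada2a in YAP-TFE3 against YAP5SA to 0.010.

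Leaving out each library in turn gave 4 to 7 members in TAZ4SA, 0 to 2 in TAZ-CAMTA1, 8 to 9 in YAP5SA and 0 to 2 in YAP-TFE3 against EV, 0 to 4 in EVsub against EV, 3 to 7 in TAZ-CAMTA1 against TAZ4SA and 4 to 7 in TAZ4SA against YAP5SA. The log2 ratio of Kat2b to Kat2a ran from -0.14 to 0.088 in TFE3 against EV, and that of Tada2b to Tada2a from -0.0022 to 0.096 in TAZ-CAMTA1 against EV and from -0.076 to 0.052 in CAMTA1 against EVsub; none of these was called.

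Replicate numbers were not taken to pair the libraries, since in no comparison was the correlation of same-numbered deviations over 0.1 for every replicate number. It was at most 0.17 against EV and was 0.25, -0.00 and 0.41 in CAMTA1 against EVsub. With the replicate number as a block, Kat2a in YAP-TFE3 (adjusted p = 0.0512) and Sgf29 in EVsub (0.0504) lost their calls, leaving 0 and 2 members called, and no other call of a member in the fit was lost. Sgf29 (65 to 323 counts) and Mbip (124 to 648 counts) had the lowest counts of the members.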
